A study of Homo sapiens with 4 samples.

Results

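The genes described here were protein-coding genes with several exons of which at least 1 is very long. For each gene of the count table the largest exonic interval was taken, and a gene was kept if it is protein-coding in RefSeq, has at least 2 intervals, has a largest interval of at least 8000 bp and has at least 400 counts over the 4 samples. Genes whose symbols begin with ZNF, ZBTB, PCDH, RTL or FAT were excluded. The rule used gene structure and the summed count but no comparison between genotypes. It kept 339 of the 28775 genes in the table. Of the 18273 protein-coding genes with at least 2 intervals, 493 reached 8000 bp, and 41 of these belonged to an excluded family and 113 others had too few counts.

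RNA with a poly-A tail was sequenced from HEK293T, a transformed human embryonic kidney cell line. The 2 MORC2 KO samples came from separate bulk-edited cell populations, each electroporated with Cas9 protein and a different gRNA against MORC2 (gRNA 1 for replicate 1, gRNA 2 for replicate 2). They were not single clones, so unedited or partly edited alleles can remain. The paper measured the efficiency of the knock-out by western blot for both gRNAs. The 2 WT samples were independent replicates of unedited HEK293T cells. The question put to these genes was whether their RNA differed between MORC2 KO and WT cells, as the study asked of the whole transcriptome.

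In most human genes with a very long exon, that exon is the last one and holds the 3′ untranslated region, the part of the mRNA where microRNAs and RNA-binding proteins act on stability and translation. In a smaller number, among them the gene of the scaffold protein AHNAK, a single long exon codes for a large part of the protein. TTN, the gene of the giant muscle protein titin, also has a long coding exon, of 17106 bp in a coding sequence of 107970 bp. MORC2 is an ATPase that works with the HUSH complex, which contains TASOR, MPHOSPH8 and PPHLN1, in silencing that involves H3K9me3, and HUSH is known to act on long transcribed stretches of DNA that lack introns.

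The structure of the members followed the first of these forms. The largest interval was the last one of the gene in 309 of the 339 members (91.2%), an internal one in 29 and the first one in 1, GVQW3. Its length had a median of 9771 bp and ranged from 8003 bp to 35608 bp, and it made up a median of 83.2% of the exonic bases of its gene. A coding sequence was found in GENCODE 29 for 338 members, and in 328 of these the largest interval was longer than the whole coding sequence, so that it must hold untranslated bases. The members had a median of 12 intervals. Their exonic length had a median of 12281 bp against 3409 bp over all genes tested, and their GC content a median of 41.7% against 48.7%. In the plot of interval against coding length, TTN, with a coding sequence of 107970 bp, lies far to the right. Not every member with a long coding exon stands apart. ADPRHL1, with a coding sequence of 5901 bp and an interval of 8611 bp, lies left of the line of equal lengths.

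**Figure D1:**
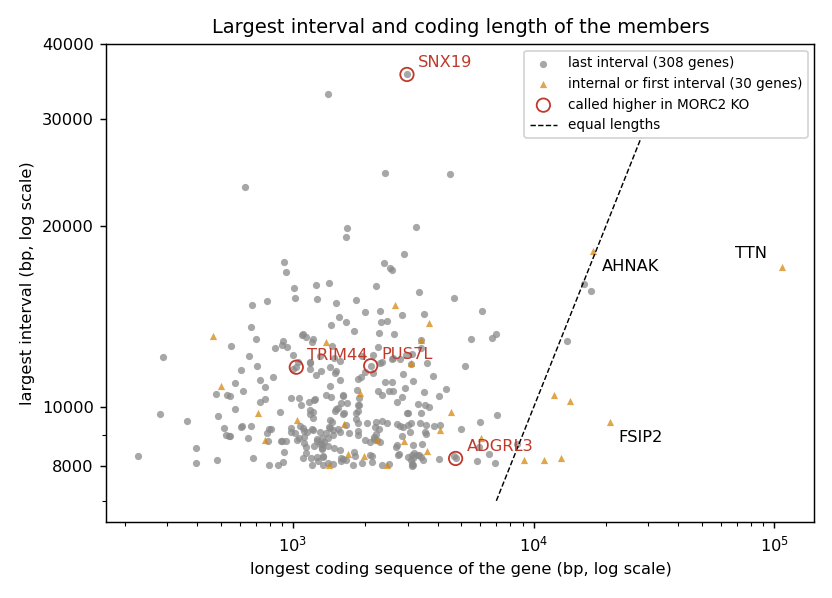
Largest exonic interval of each member (vertical axis, bp, log scale) against the longest coding sequence of the gene (horizontal axis, bp, log scale), for the 338 members with a coding sequence. Grey circles have their largest interval last, orange triangles have it internal or first, and red rings mark the 4 members called higher in MORC2 KO. Most points lie left of the dashed line of equal lengths, and SNX19 is the highest point.

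The counts summed to between 53970043 and 64312514 per sample, and every member had at least 70 counts in every sample. All 339 members passed the filter on low counts, which left 16675 genes for testing. MORC2 itself, which has a largest interval of 1736 bp and is not a member, was listed with 3064 and 3637 counts in KO cells and with 5131 and 4669 in WT cells, and the log2 fold change of -0.71 had a standard error of 0.06 (edgeR quasi-likelihood F-test, Benjamini-Hochberg adjusted p = 1.37e-04). TASOR was called higher, with a log2 fold change of 0.78 by the same test, and none of the other 8 genes of silencing measured beside MORC2 (SETDB1, ATF7IP, MPHOSPH8, MORC4, TRIM28, MORC3, PPHLN1 and TASOR2) was called. Of the markers of the cell line, VIM had at least 30597 counts in every sample, NEFL at least 3658, NEFM at least 319, KRT18 at least 352, KRT8 at least 118 and PAX2 at least 69. Of the markers of other tissues, PTPRC, CD3E, HBB and INS had at most 1 count in any sample, ALB had 6 to 14 and COL1A1 194 to 238.

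The replicates of each genotype differed in the members as a group. Each MORC2 KO replicate had its own gRNA, so here and below gRNA and replicate cannot be told apart in KO cells. MORC2 KO replicate 2 lay above replicate 1 in 233 of the 339 members (68.7%), against 50.8% of all genes tested. WT replicate 1 lay above WT replicate 2 in 257 members (75.8%), against 48.8% of all genes tested. The median difference over members was 0.06 on the log2 scale in both pairs, and it was under 0.01 in size over all genes tested. The calls, the list medians and the comparison at like abundance are therefore also given for each KO replicate or without each sample.

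Of the 339 members, edgeR called 4 higher in MORC2 KO at an adjusted p under 0.05, namely SNX19, ADGRL3, PUS7L and TRIM44, and 0 lower. That is 1.18% of the members, beside 98 of 16675 genes tested (0.588%) called higher and 5 (0.0300%) called lower. At an unadjusted p under 0.05, 36 members were higher (background 8.14%) and 17 lower (background 6.17%) in edgeR. DESeq2 at its adjusted p called the same 4 members higher and 0 lower, beside 0.690% and 0.102% of all genes tested. Both MORC2 KO samples lay above both WT samples in 76 members (22.4%) and below both in 63 (18.6%), beside 24.1% and 23.4% of all genes tested. The median log2 fold change was 0.01 over the members and 0.01 over all genes tested, and no member reached 1 in size. Over the 12940 other multi-exon protein-coding genes tested, outside the excluded families, it was -0.01, with 0.325% called higher and 0.0309% lower. In bulk samples such as these, a change in the number of cells that express a gene and a change in RNA per cell cannot be told apart. The calls for 2 of the 4 genes and the number of calls depended on single libraries. Without MORC2 KO replicate 1 edgeR called 55 members higher (16.2%) and 22 lower (6.49%), beside 8.16% higher and 12.4% lower over all genes in the same fit. Without MORC2 KO replicate 2 it called 6 and 1 (1.77% and 0.295%, beside 0.838% and 0.177%). Without WT replicate 1 it called 10 and 0 (2.95% higher, beside 0.873%), and without WT replicate 2 it called 2 and 0 (0.590% higher, beside 0.513%).

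SNX19, a sorting nexin that binds membrane lipids and works in the endosomal system, had the smallest p among the members and the longest interval. SNX19 (Entrez 399979) is a minus strand gene of chromosome 11 that runs from 130901996 to 130952233 in the coordinates of T2T-CHM13v2.0, used for all genes here except the promoters. Its last interval of 35608 bp was the longest of any protein-coding gene with at least 2 intervals in the table, and it makes up 90.9% of the exonic bases, which are shared with no other gene. MORC2 KO cells gave 2146 and 2657 counts and WT cells 1336 and 1218. In CPM, which are counts scaled to TMM-adjusted library size, this was 35.9 and 40.2 against 22.5 and 22.9. The lowest KO sample thus stood well above the highest WT sample, and the KO samples differed from each other more than the WT samples did. KO cells averaged 38.1 ± 3.06 CPM (SD, n = 2) and WT cells 22.7 ± 0.306 CPM (SD, n = 2). SNX19 thus rose 1.68-fold, by 0.75 on the log2 scale, with a 95% interval from 0.59 to 0.90, a standard error of 0.07 and an edgeR adjusted p = 2.92e-04. Per kb of exonic length SNX19 had only 0.775 CPM, beside a median of 3.71 over the members. A count per gene does not show where in the long interval the additional reads lay.

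ADGRL3, which encodes latrophilin 3, an adhesion G protein-coupled receptor at synapses, had the largest fold change of the members at a level of only 0.597 CPM per kb of exonic length. ADGRL3 (Entrez 23284) spans 877380 bp on the plus strand of chromosome 4, from 64638264 to 65515643, and its last interval of 8227 bp makes up 56.9% of its exonic bases. Its 641 and 747 counts in KO cells stood against 350 and 355 counts in WT cells, which is 11.0 ± 0.414 CPM (SD, n = 2) against 6.28 ± 0.557 CPM (SD, n = 2). Every KO sample lay above every WT sample. ADGRL3 rose by 0.81 on the log2 scale, with a 95% interval from 0.59 to 1.04, a standard error of 0.10 and an edgeR adjusted p = 0.00248. ADGRL3 shares 1.04% of its exonic bases with ADGRL3-AS1, and since the counting ignored strand and dropped read pairs that overlap more than 1 gene, reads of the pair cannot be told apart there.

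PUS7L and TRIM44 rose less and were expressed more strongly. PUS7L (Entrez 83448, chromosome 12 from 43677351 to 43717488, minus strand), which encodes a pseudouridine synthase, gave 4527 and 5417 counts in KO cells against 3691 and 3052 in WT cells, which is 75.7 and 82.0 CPM against 62.0 and 57.3. The rise of PUS7L was 0.40 on the log2 scale, with a 95% interval from 0.26 to 0.54 and an edgeR adjusted p = 0.0116. TRIM44 (Entrez 54765, chromosome 11 from 35801539 to 35956748, plus strand), a tripartite motif protein linked to ubiquitin, gave 9577 and 11347 counts in KO cells against 7845 and 6830 in WT cells, which is 160 and 172 CPM against 132 and 128. The rise of TRIM44 was 0.35 on the log2 scale, with a 95% interval from 0.22 to 0.48 and an edgeR adjusted p = 0.0180, and both genes had a standard error of 0.06. In both genes the groups did not overlap, and MORC2 KO replicate 2 was the highest sample. Last intervals of 11718 bp and 11653 bp made up 83.6% and 89.7% of their exonic bases, with none shared with another gene. PUS7L was no longer called without WT replicate 2 (adjusted p = 0.124 in edgeR), and TRIM44 was no longer called without WT replicate 1 or without WT replicate 2 (largest adjusted p = 0.232 in edgeR). SNX19 and ADGRL3 were called without any 1 of the 4 samples.

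**Figure D2:**
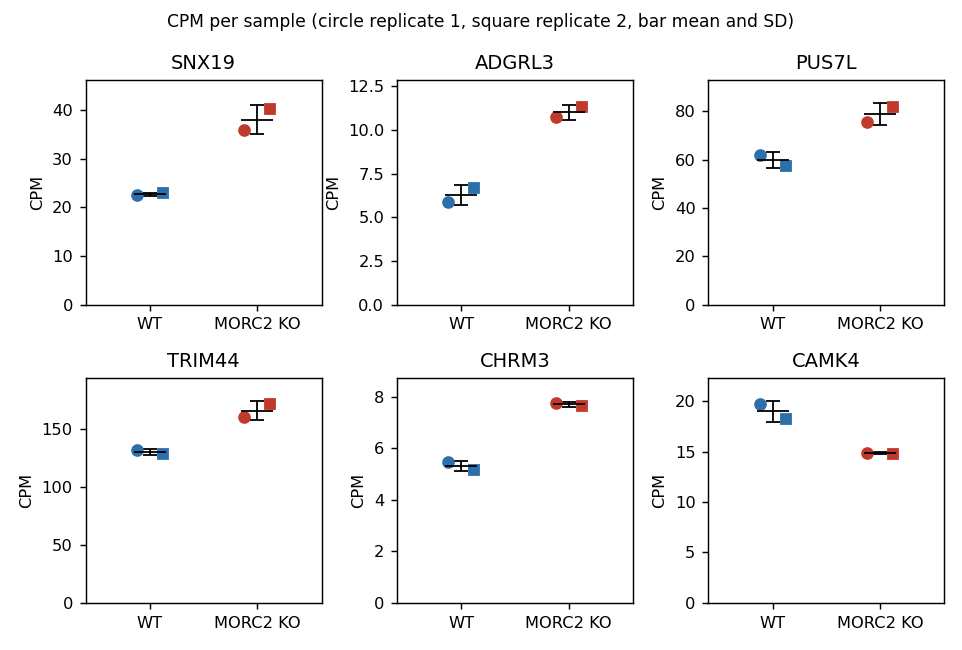
CPM (vertical axis, from 0, TMM-scaled) in each WT (blue) and MORC2 KO (red) sample for the 4 members called higher and for CHRM3 and CAMK4, which had the next smallest p and were not called. Circles are replicate 1, squares replicate 2, and the black bars the mean and SD of 2 samples. In each panel the KO and WT samples do not overlap, and CAMK4 is the panel with KO below WT.

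The start regions that RefSeq lists for the called members are shown where they were found. Which start gave the additional RNA was not tested. RefSeq windows from 250 bases before to 50 bases after the start, on GRCh38.p14, were found for ADGRL3, at chr4:61200076-61200375 and chr4:61201922-61202221 on the plus strand, and for TRIM44, at chr11:35662525-35662824 on the plus strand. SNX19 and PUS7L had none in the table used. Capitals mark GC boxes, spelt GGGCGG, and boxes spelt CCAAT, on either strand. The TATA box was searched as the letters TATAAA, also on either strand, and matches of different motifs and matches of different motifs did not overlap in these windows.
ADGRL3 first start: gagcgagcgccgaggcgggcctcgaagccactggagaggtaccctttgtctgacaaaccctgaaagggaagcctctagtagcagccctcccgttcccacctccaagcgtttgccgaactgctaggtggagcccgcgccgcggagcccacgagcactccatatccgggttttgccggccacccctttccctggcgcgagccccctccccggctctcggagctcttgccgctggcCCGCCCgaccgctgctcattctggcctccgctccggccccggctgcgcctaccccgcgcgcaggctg
ADGRL3 second start: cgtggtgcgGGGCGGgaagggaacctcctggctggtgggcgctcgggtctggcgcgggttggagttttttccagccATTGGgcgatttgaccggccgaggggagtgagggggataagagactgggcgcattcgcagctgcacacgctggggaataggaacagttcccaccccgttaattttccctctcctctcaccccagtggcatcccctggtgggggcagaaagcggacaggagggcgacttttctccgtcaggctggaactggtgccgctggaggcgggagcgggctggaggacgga
TRIM44: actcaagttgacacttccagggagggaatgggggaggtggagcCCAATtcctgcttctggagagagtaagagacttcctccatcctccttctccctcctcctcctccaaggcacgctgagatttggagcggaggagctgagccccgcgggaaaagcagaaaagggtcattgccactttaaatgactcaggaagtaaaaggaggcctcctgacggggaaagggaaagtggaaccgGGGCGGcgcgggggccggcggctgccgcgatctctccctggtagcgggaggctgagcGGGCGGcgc
The first ADGRL3 window held 1 GC box and 30 CG dinucleotides, the second 1 GC box, 1 CCAAT box and 21 CG, and the TRIM44 window 2 GC boxes, 1 CCAAT box and 17 CG. None of them held TATAAA. Such windows were found for 287 members, of which 70.4% held a GC box, 32.4% a CCAAT box and 3.83% a TATA box. Over the windows of all 27305 genes in the table, expressed here or not, the shares were 44.6%, 35.7% and 11.95%. The median number of CG dinucleotides was 28 in the members and 14 over all genes. The members are protein-coding with at least 400 counts, and no set of genes matched for this was compared.

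Among the members whose KO and WT samples did not overlap, the 6 highest fold changes belonged to ADGRL3, SNX19, FSIP2, SYT16, CHRM3 and SPATA31H1. CHRM3, the M3 muscarinic acetylcholine receptor, came closest to a call, at 465 and 505 counts in KO cells beside 325 and 275 in WT cells. Its log2 fold change of 0.54 had a standard error of 0.11 and an edgeR adjusted p = 0.0523. FSIP2, a protein of the sperm tail, had 137 and 208 counts against 130 and 70, a log2 fold change of 0.63 with a standard error of 0.24. SYT16, a synaptotagmin family member, had 137 and 202 counts against 110 and 93 with a change of 0.57 ± 0.19 (standard error, log2). SPATA31H1 had 352 and 464 counts against 304 and 217 with a change of 0.49 ± 0.14 (standard error, log2). FSIP2, SYT16 and SPATA31H1 missed the threshold, with adjusted p = 0.276, 0.232 and 0.179 in edgeR. Their KO replicates differed from each other more than those of CHRM3.

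The 6 lowest fold changes of the same kind were those of BNC2, ST6GALNAC3, KSR2, CAMK4, SLC16A7 and PLXDC2, and none of them was called lower. CAMK4, a calcium and calmodulin-dependent kinase, gave 891 and 978 counts in KO cells and 1173 and 973 in WT cells, which after scaling is 14.9 and 14.8 CPM against 19.7 and 18.3. The log2 fold change of CAMK4 was -0.36 with a standard error of 0.08 and an edgeR adjusted p = 0.0768. BNC2, a zinc finger protein, had the lowest fold change, -0.51 with a standard error of 0.19, from 91 and 131 counts against 160 and 123. ST6GALNAC3, a sialyltransferase, had a log2 fold change of -0.38, KSR2, a scaffold of the RAF and ERK kinases, -0.36, SLC16A7, a monocarboxylate transporter, -0.33, and PLXDC2, a transmembrane protein with a plexin domain, also -0.33. Adjusted p ranged from 0.214 to 0.330 in edgeR for these 5 genes other than CAMK4.

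The members with the next longest intervals were not called. SMAD2, a transducer of TGF-beta signals, has the next longest interval after SNX19, 33010 bp, and stood at 47.9 and 48.0 CPM in KO cells against 47.4 and 46.5 CPM in WT cells. RPS6KA5, a kinase that phosphorylates histone H3, has 24460 bp and had 21.7 and 20.1 CPM against 19.7 and 19.6 CPM. ERCC6, a protein of transcription-coupled DNA repair, has 24352 bp and had 34.9 and 37.7 CPM against 37.4 and 31.3 CPM. NOPCHAP1, with 23149 bp, had 25.7 and 30.7 CPM against 35.0 and 26.2 CPM. In ERCC6 and NOPCHAP1 the samples of the genotypes overlapped, and in SMAD2 and RPS6KA5 they did not. In the plot of change against interval length these genes lie near 0 at the right, apart from SNX19.

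**Figure D3:**
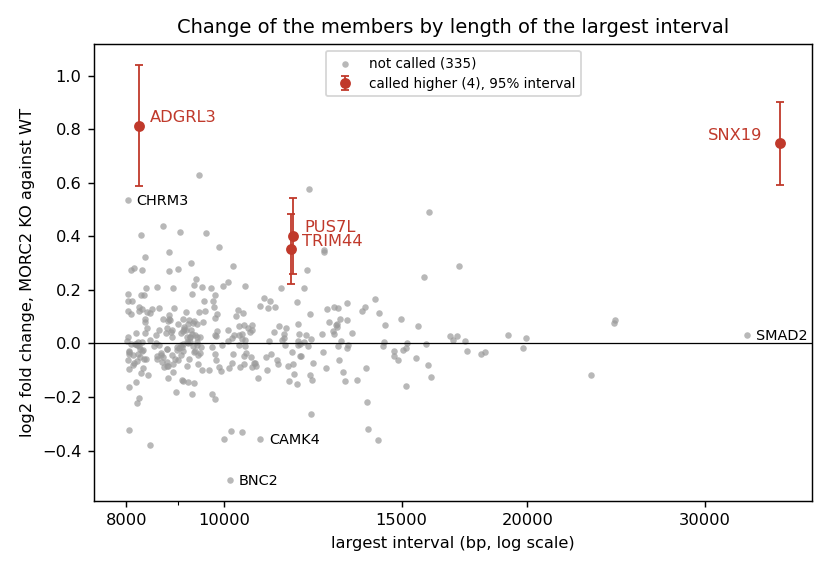
Log2 fold change of each of the 339 members (vertical axis, MORC2 KO against WT) against its largest interval (horizontal axis, bp, log scale). Red points with 95% intervals are the 4 members called higher, and grey points are the 335 not called. The grey points spread around 0 at every length, and BNC2 is the lowest at -0.51.

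The most strongly expressed members showed small differences. Per length, NAP1L1, a nucleosome assembly protein, stood highest at 47.3 CPM per kb, followed by G3BP1, which nucleates stress granules, at 41.4, CBX5, the heterochromatin protein HP1 alpha, at 31.3, SSR1, a subunit of the translocon-associated complex, at 27.7, and EMC10, a subunit of the ER membrane complex, at 27.3. The median over members was 3.71 CPM per kb, and FSIP2 was lowest at 0.107. NAP1L1 stood at 665 and 642 CPM in KO cells against 678 and 672 in WT cells. CBX5 stood at 357 and 430 CPM in KO cells against 364 and 335 in WT cells, so its groups overlapped and its KO replicates differed by more than the means of the genotypes. None of these 5 genes was called. The 95% interval of the fold change lay within 0.5 on either side of 0 on the log2 scale in 301 of the 339 members (88.8%), beside 68.5% of all genes tested, whose abundance was lower (median log2 CPM of 4.21 against 5.59).

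By role, 83 members fell in 7 lists of gene functions and 1 of these 83, TRIM44, was called. The list of ubiquitin ligases, their subunits and deubiquitinases held 15 members, of which 1, UBN2, is a ubinuclein that works with histone chaperones and not an enzyme of ubiquitin. TRIM44 was higher and the other 14 were not called, and the median log2 fold change was 0.01 beside 0.01 over all genes tested. MDM2, the ubiquitin ligase of p53, stood at 105.9 and 106.1 CPM in KO cells against 105.9 and 103.9 in WT cells, and CBL, a ligase of receptor kinases, had 89.2 and 99.0 against 105.4 and 88.7. Of 19 kinases, phosphatases and scaffolds (CSNK2A1, TAOK1 and DYRK1A most expressed) 0 were called, with a median of -0.03. Of 15 genes in the list of channels, transporters and receptors, which was drawn by the start of the symbol, 0 were called. It also took in LRPAP1, a chaperone of LDL receptor family proteins, and ADCY1, an adenylyl cyclase, and its most expressed genes were LRPAP1, SLC5A3 and SLC44A1. The log2 fold changes in it lay between -0.33 and 0.32, with 0.03 as the median. Each of these 3 lists held members on both sides of 0.

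The regulators of RNA and chromatin gave no call either. Of 8 genes of the RNA-binding and microRNA pathway 0 were called, with a median log2 fold change of 0.01 and a range from -0.10 to 0.07. QKI, an RNA-binding protein of splicing and stability, stood at 261 and 257 CPM in KO cells against 260 and 258 in WT cells. AGO1, which carries microRNAs to their targets, had 160 and 166 CPM against 181 and 169 CPM, with both KO samples below both WT samples. Of 8 chromatin genes 0 were called (median -0.01, range -0.09 to 0.17), CBX5 having the largest value, followed in expression by NSD2, which methylates histone H3, and PHF3, which binds RNA polymerase II. Of 11 transcription factors and co-factors (FOXK1, NFAT5 and CUX1 most expressed) 0 were called, with a median of 0.05. Of 7 giant proteins and cytoskeletal linkers 0 were called, with a median of 0.06. At an unadjusted p under 0.05 edgeR had 1 gene of a giant protein higher, 1 gene of the membrane list higher and 2 lower, 1 gene of the kinase list in each direction, 3 of the 15 genes of the ubiquitin list higher (beside 8.14% of all genes tested), and 0 in either direction in the RNA-binding, chromatin and transcription factor lists. With lists this small, a count of 0 beside a background of 8.14% and 6.17% says little. The list medians differed between the KO replicates. Against the WT mean, the giant proteins had -0.08 in MORC2 KO replicate 1 and 0.19 in replicate 2, the transcription factors -0.02 and 0.15, the RNA-binding list -0.01 and 0.06, the chromatin list -0.03 and 0.04, and the kinase list -0.05 and 0.03. The ubiquitin list had 0.01 and 0.03, and the membrane list 0.01 and 0.09.

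**Figure D4:**
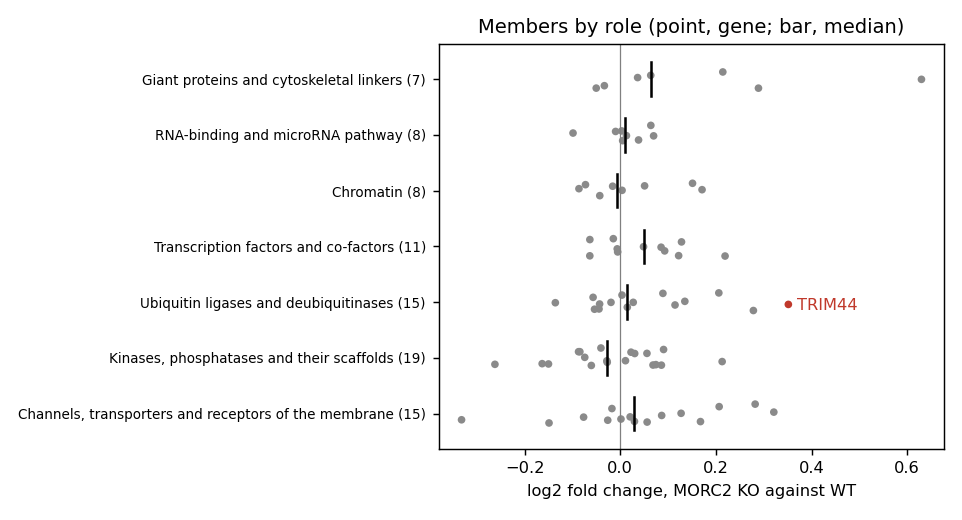
Log2 fold change (horizontal axis, MORC2 KO against WT) of the 83 members in 7 lists of function, 1 point per gene, with the number of genes in parentheses and the median as a black bar. TRIM44, in red, is the gene called, and the medians lie between -0.03 and 0.06.

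In 16 members the longest coding exon of GENCODE 29 covered at least 50% of the length of the largest interval, and the median differences between replicates were larger in these than in the rest. They include AHNAK with an exon of 18173 bp, TTN with 17106 bp, CMYA5, STARD9, FSIP2, APC, the scaffold that holds beta-catenin in check, and SPEN, a transcriptional co-repressor. AHNAK gave 3916 and 5906 counts in KO cells against 5440 and 3569 in WT cells. TTN had 1376 and 2149 counts against 1534 and 1047. In AHNAK and TTN the order was the same, with MORC2 KO replicate 2 and WT replicate 1 above the other sample of their genotype. MORC2 KO replicate 2 lay above replicate 1 in 14 of the 16, by a median of 0.19 on the log2 scale, and WT replicate 1 above replicate 2 in 13, by a median of 0.16. In the 322 others the medians were 0.06 and 0.06. None of the 16 was called in edgeR. At an unadjusted edgeR p under 0.05, 3 were higher (18.75%) and 0 lower, beside 8.14% and 6.17% of all genes tested. The median standard error of the 16 was 0.11, beside 0.07 for the 322 members with less coding sequence in the interval. Against the WT mean, the median of the 16 was -0.01 in MORC2 KO replicate 1 and 0.19 in replicate 2. The 16 were also less abundant, with a median log2 CPM of 4.05 against 5.62.

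Members whose largest interval is not the last one were few, and none of these 30 was called in edgeR. At an unadjusted edgeR p under 0.05, 3 of the 30 were higher and 1 was lower, beside 8.14% and 6.17% of all genes tested. The median of the 30 against the WT mean was -0.01 in MORC2 KO replicate 1 and 0.08 in replicate 2. The 12 with the longest intervals included AHNAK, TTN, CMYA5 and STARD9 with coding exons. INTS6, a subunit of the Integrator complex with an internal interval of 14752 bp, stood at 42.8 and 43.1 CPM in KO cells against 43.3 and 44.3 in WT cells. DGKH, a diacylglycerol kinase with 13801 bp, had 26.9 and 33.5 CPM against 31.5 and 23.5 CPM. MRPL42, a mitochondrial ribosomal protein with 13129 bp, had 154 and 140 CPM against 159 and 157 CPM, and NCKAP1, a subunit of the WAVE complex with 12934 bp, had 286 and 290 CPM against 280 and 271 CPM. PDK1, a kinase that inhibits pyruvate dehydrogenase, had 52.4 and 53.9 CPM against 48.4 and 48.3 CPM with an internal interval of 12841 bp. C15orf40 and SLC6A11, also among the 12, lay between 19.6 and 32.0 CPM in the samples.

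Over all multi-exon protein-coding genes tested, with the excluded families left out, the median log2 fold change was -0.04 in the 3908 genes with a largest interval under 1000 bp, -0.01 from 1000 bp to under 2000 bp and within 0.02 of 0 in each class from 2000 bp upward. From 8000 bp to under 12000 bp it was 0.01 (291 genes, which include some under 400 counts) and for 12000 bp or more it was 0.01 (89 genes). The share called higher was 0.154% under 1000 bp and 0.348%, 0.437% and 0.425% in the next 3 classes. It was 1.03% from 8000 bp (3 genes) and 1.12% from 12000 bp (1 gene, SNX19). At an unadjusted edgeR p under 0.05, 5.27% were higher and 11.4% lower under 1000 bp. From 8000 bp these shares were 9.28% and 4.12%, and from 12000 bp 10.1% and 5.62%. Abundance also differed, with a median log2 CPM of 4.68 under 1000 bp, 5.32 from 8000 bp and 5.14 from 12000 bp. Within the classes, MORC2 KO replicate 2 minus the WT mean went from -0.06 under 1000 bp to 0.06 from 8000 bp, whereas KO replicate 1 minus the WT mean lay between -0.02 and 0 throughout. WT replicate 1 minus WT replicate 2, which holds no KO sample, went from -0.02 to 0.07 over the same classes.

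Compared with other multi-exon protein-coding genes of like abundance (20 classes of mean log2 CPM), the members had a median excess in log2 fold change of 0.03, and 208 of the 339 lay above the median of their class. Unlike the classes by length, these other genes include the families that the rule excluded. The excess was 0.07 in MORC2 KO replicate 2 and -0.0014 in replicate 1. With offsets that remove a trend on gene length it was 0.0109. The excess moved with single libraries of both genotypes, since it was 0.0747 without MORC2 KO replicate 1, -0.000807 without MORC2 KO replicate 2, 0.0771 without WT replicate 1 and -0.0069 without WT replicate 2. It also moved with gene length, and the part of the libraries and of length in it was not tested. The members without exonic bases shared with another gene (250 of 339) had a median log2 fold change of 0.01, as did all members. Between 2.20% and 2.39% of the counts of each library lay on the members, with MORC2 KO replicate 2 highest and WT replicate 2 lowest.

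At the edge of the rule, the members just inside 8000 bp were FHIP1A with 8003 bp, CHRM3 with 8021 bp and BCAT1 with 8023 bp. Just outside were ALDH2 with 7990 bp, WDFY2 with 7970 bp and NOTCH2NLA with 7953 bp. At the count threshold, MMP16, RGS3 and CMYA5 were inside with summed counts of 437, 455 and 461, and SLC8A1, RNF152 and DSEL were outside with 396, 387 and 368.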

How the data were processed

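Alignment by the authors used subread and the T2T-CHM13v2.0 genome, and featureCounts (Subread 2.0.6) assigned the pairs to strict RefSeq genes. The deposited values are raw counts of read pairs per gene in 2 MORC2 KO and 2 WT samples. The command recorded with the counts ignores strand, counts multi-mapping reads and drops pairs that overlap more than 1 gene, so genes with near-copies or overlaps are less certain. Each row also lists the exon starts and ends, from which intervals, lengths and shared bases were computed. Symbols came from a RefSeq table of GRCh38.p14 (28763 of 28775 matched), and coding lengths and GC content from GENCODE 29 (GC for 94.4% of tested genes). With 2 samples per genotype, both the spread between samples and, for weakly expressed genes, counting limit the precision.

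All genes were fitted together in R 4.3.3 with edgeR 4.0.16, with filterByExpr, TMM factors (0.986 to 1.03) and the older quasi-likelihood F-test on genotype alone, adjusted by Benjamini-Hochberg over 16675 genes at 0.05, since the authors used this test in an earlier version. The biological coefficient of variation was 5.33%. Standard errors are the log2 fold change over the square root of F. DESeq2 1.42.0, other scalings, filters, loess offsets (span 0.3), other limits of the rule and leaving out each sample were tried as alternatives. The scripts were tested on simulated data. The members, lists and tests were chosen with earlier results of these data known. Named were the members called, the 6 highest and 6 lowest fold changes without overlap of the groups, the 5 with most CPM per kb, the 5 with the longest interval, the neighbours of the thresholds, the 3 most expressed of each list and the 12 longest with an interval that is not last. GVQW3, the other named coding-exon genes and the genes of silencing and markers fall outside this rule or were taken whole. The replicate number could not be shown to pair samples. Some of the genes that this rule names are not reported here. ATAC-seq and ChIP-seq were not analysed here.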

Additional observations from a re-analysis of the deposited data

How the results depend on the processing

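The 4 members called higher were called under all 13 alternatives of scaling, filter, offsets, block and tool, with log2 fold changes of 0.69 to 0.79 for SNX19, 0.76 to 0.85 for ADGRL3, 0.37 to 0.44 for PUS7L and 0.33 to 0.40 for TRIM44. The number of members called moved more. Higher and lower calls were 22 and 3 without a filter on low counts (6.49% and 0.885%, beside 2.04% and 0.801% of all genes), 8 and 1 with length offsets (2.36% and 0.295%, beside 1.25% and 0.246%), and 6 and 1 with GC content and length offsets (1.77% and 0.295%, beside 0.936% and 0.126%). At an adjusted p under 0.10 they were 6 and 1, beside 0.882% and 0.0900% of all genes. A largest interval of at least 6000 bp gave 7 higher of 799 genes (0.876%, beside 0.588% of all genes tested). Leaving out 1 sample, with the lone sample assumed to vary like the others, gave 2 to 55 higher and 0 to 22 lower members, beside 88 to 1397 higher and 9 to 2117 lower over all genes, and a median log2 fold change of -0.0228 to 0.0550. The median log2 fold change and the median excess otherwise stayed within the SD between the KO replicates. The median log2 fold change of the members nevertheless changed sign with offsets on length. It was 0.0108 in the main fit, -0.0151 with length offsets and -0.0096 with GC content and length offsets. The cause of these movements was not tested.

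The labels number the replicates alike in both genotypes, but nothing ties equal numbers to a shared culture or day, and with 2 samples per group the deviations of equally numbered samples correlated at -0.124. With the replicate number as a block 12 members were higher and 1 lower (3.54% and 0.295%, beside 1.42% and 0.252% of all genes), and 14 and 3 with the GC content and length offsets added to that block (4.13% and 0.885%, beside 1.85% and 0.540%). The crossed block, chosen after seeing the data, gave 34 higher and 9 lower members, beside 903 and 809 of all genes. Of 238 fold changes of the 14 members whose fold change is printed, recomputed under these alternatives, 199 kept their direction and side of the threshold, 36 passed it anew, 3 lost it and 0 reversed. Values for the members with the fewest counts are limited by counting and by 2 samples per genotype.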
